A study of Mus musculus with 6 samples.

Results

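The heat shock proteins and chaperones of 32D cells were followed here as 37 genes chosen by name, out of 18193 genes that had a probe set of their own on the array. They are the transcription factor Hsf1, the Hsp70 and Hsp110 proteins Hspa1a, Hspa1b, Hspa4, Hspa8, Hspa14 and Hsph1, the Hsp90 proteins Hsp90aa1 and Hsp90ab1, the small heat shock protein Hspb1, the J proteins Dnaja1, Dnaja2, Dnajb1, Dnajb4, Dnajb6, Dnajb11 and Dnajc7, the cochaperones Bag1, Bag3, Stip1, Ahsa1, Chordc1, Fkbp4, Ptges3, Cdc37 and St13, the chaperonin subunits Tcp1, Cct2, Cct3, Cct4, Cct5, Cct7 and Cct8, and the organelle chaperones Hspa9, Hspd1, Hspe1 and Trap1. Of the 37, 34 had a probe set that carried only their symbol, and 31 of those passed the filter on dim signals and were tested among 10208 genes. Most members are proteins of the cytosol, but Hspa9, Hspd1, Hspe1 and Trap1 work in mitochondria and Dnajb11 in the endoplasmic reticulum, so the set is wider than a cytosolic one.

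Chaperones bind unfolded stretches of protein, and many release them under the control of ATP, so that new chains fold and damaged ones do not clump. Hsp70 proteins are loaded with clients by J proteins and emptied by nucleotide exchange factors, Hsp90 finishes the folding of kinases and steroid receptors with a set of cochaperones, and the ring-shaped chaperonin CCT folds actin and tubulin. The transcription factor HSF1 is held back in unstressed cells and, on heat or other protein damage, binds heat shock elements and turns on many of these genes together.

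The 32D line is a mouse myeloid progenitor line that depends on interleukin-3 (IL-3). The study asked what changes in its messenger RNA when the cells express miR-9 and miR-9*, which are the strands of 1 microRNA hairpin, from a construct, compared with cells that carry the empty vector labelled A1-EV. Each arm had 3 arrays, numbered 1 to 3 in the labels, and cells of both arms were kept in RPMI containing murine IL-3 at 10 ng/ml and 10% FCS, with no other treatment. The replicates are called independent, but how the cultures were separated is not given, so p-values measure the spread between these samples, which may be partly technical, and whether the cells of an arm were 1 clone or a pool is not given either.

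Each array gave a MAS5 signal per probe set on a linear scale, with the same trimmed mean of 100 on all 6 arrays. The median signal was 11.99 and 12.9 on the number 3 arrays of the empty vector and miR-9/9* arms and 14.0 to 15.2 on the other 4, while the 99th percentile was 3029 and 2750 on the number 3 arrays and 2479 to 2613 on the others, so bright probe sets stood higher and dim ones lower there. Of 12 markers of myeloid progenitors 9 passed the filter (Elane, Cd34 and Kit did not), and of 6 measured lymphoid markers 0 did. Arrays of the same number departed from the mean of their arm in like ways, with correlations of 0.491, 0.616 and 0.680 across genes, so the arms were also compared within replicate numbers. Precision is limited by having 6 arrays, and in bulk RNA a smaller number of cells of a type cannot be told apart from less RNA per cell.

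The mature strands that the construct expresses are shown because all arm comparisons rest on them, with the seed, bases 2 to 8 from the 5′ end, in capitals. They come from RefSeq (GRCm38.p6), where each occurs at 3 loci, Mir9-1, Mir9-2 and Mir9-3. The strand called miR-9* is the 3p strand, and the seeds of the strands differ.
mmu-miR-9-5p: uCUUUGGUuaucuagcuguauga
mmu-miR-9-3p: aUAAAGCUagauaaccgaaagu

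Promoters of members were read from RefSeq (GRCm38.p6) as the 250 bases before each annotated start, which was possible for 30 of the 37. They are shown because heat shock elements are the sites through which HSF1 acts on this family. The element was searched as 3 units, GAANNTTCNNGAA or TTCNNGAANNTTC, and as 2 units, GAANNTTC or TTCNNGAA, whose sets cover both strands, and any 3-unit match holds 2-unit matches within it. The 3-unit form was found for Hspd1, Hspe1 and Dnajb6, 3 of 30 members, against 0.514% of 27025 genes, and the 2-unit form for 13 of 30 members, 43.3%, against 14.5% of genes. Each gene is counted, although Hspd1 and Hspe1 share the bases of their 3-unit matches and the promoters of Hspa1a and Hspa1b are nearly identical. These are matches of letters in a window, not measured binding sites. Of the 12 members found below to differ between replicate numbers, Dnajb1, Chordc1, Bag1, Ahsa1, Dnajb11, Hspa4 and Hspa14 had no match of either form. Matches were also found for Cct2, Cct5, Cdc37, Dnajb4, Fkbp4 and Hspb1, which did not pass that test, and for the untested Hspa1a and Hspa1b. Whether matches go with the replicate numbers was not tested.

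Of the windows below, each 100 bases long and read 5′ to 3′ on the gene's strand with the matches in capitals, those of Hspe1 and Dnajb6 hold the 3-unit form and the other 4 the 2-unit form. The Hspe1 window lies at chr1:55088018-55088117 on the + strand, in the promoter between the chaperonin genes Hspe1 and Hspd1, whose 300-base windows share 285 bases. Dnajb6 lies at chr5:29735798-29735897 (+), Hsph1 at chr5:149636337-149636436 (-), Dnaja1 at chr4:40722298-40722397 (+), Hspa1b at chr17:34959289-34959388 (-) and Hspa1a at chr17:34972207-34972306 (-), all upstream of an annotated start. The Hspa1a and Hspa1b windows are identical in 100 of 100 bases.
Hspe1: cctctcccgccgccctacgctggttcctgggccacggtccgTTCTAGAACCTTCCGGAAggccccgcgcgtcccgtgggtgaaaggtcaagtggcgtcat
Dnajb6: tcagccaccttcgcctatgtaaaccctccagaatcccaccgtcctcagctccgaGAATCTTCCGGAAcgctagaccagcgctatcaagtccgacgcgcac
Hsph1: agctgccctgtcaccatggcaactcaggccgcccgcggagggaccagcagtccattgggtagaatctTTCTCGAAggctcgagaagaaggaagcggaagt
Dnaja1: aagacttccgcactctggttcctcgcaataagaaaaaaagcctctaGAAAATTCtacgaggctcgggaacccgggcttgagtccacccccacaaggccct
Hspa1b: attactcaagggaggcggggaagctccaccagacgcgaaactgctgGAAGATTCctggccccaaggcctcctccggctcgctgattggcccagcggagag
Hspa1a: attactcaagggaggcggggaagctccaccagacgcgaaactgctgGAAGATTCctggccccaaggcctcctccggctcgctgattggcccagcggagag

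Hspa1a, Hspa1b and Bag3, which heat induces strongly, were dim on all 6 arrays. Hspa1a, the inducible Hsp70, gave signals of 5.97, 5.67 and 3.25 in the empty vector samples 1, 2 and 3 and of 8.17, 1.40 and 8.13 in the miR-9/9* samples. Its near copy Hspa1b gave 7.49, 6.84 and 4.55 with the empty vector and 8.76, 5.21 and 7.46 with miR-9/9*, and Bag3, a nucleotide exchange factor that HSF1 also drives, gave at most 5.70 on any array. All of these values lie under the filter, which corresponds to a signal of 12.9, so the 3 genes were not tested, and the arms overlapped. Because Hspa1a and Hspa1b are nearly identical, their probe sets may share target sequence. Detection calls were not used, so these values say that the signal was dim and not that the RNA was absent.

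Hspb1, the small heat shock protein that holds unfolding clients until Hsp70 can take them, was just above the filter. Its signals were 20.9, 15.5 and 13.5 with the empty vector and 13.7, 14.3 and 25.3 with miR-9/9*, with no order shared by the arms. Hsf1 itself, Hsp90ab1, the constitutive Hsp90, and Ptges3, the Hsp90 cochaperone p23, had no probe set named for them alone and were not tested. Probe sets that Ptges3 shares with other annotated symbols had mean signals of 2433 and 3224 and log2 differences between the arms of 0.07 and 0.09, which cannot be assigned to the gene. The other 30 tested members had mean signals up to 6490, and the median over all 31 was 1172. Signals of different probe sets do not give the relative abundance of their genes.

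**Figure D1:**
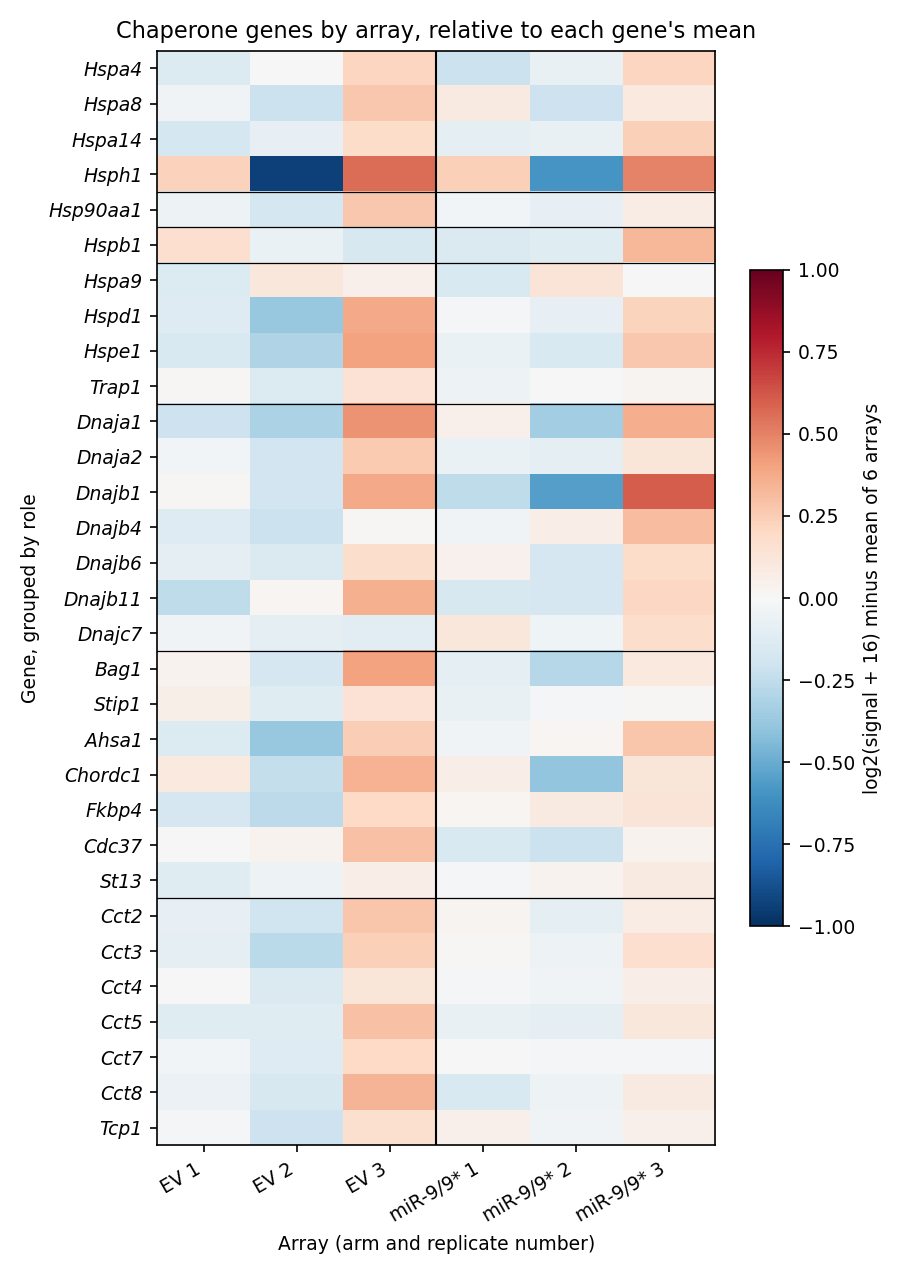
Heat map of the 31 tested members (rows, grouped by role) on the 6 arrays (columns; EV, empty vector), where colour is log2(signal + 16) minus the gene's mean over the 6 arrays. The number 3 columns are mostly red in both arms, and the lowest value is that of Hsph1 on the number 2 array of the empty vector.

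No member passed the test between the arms. With the arms compared without a block, 0 of 31 members passed limma's test at an adjusted p of 0.05, beside 0.0588% of all tested genes, and at an unadjusted p of 0.05 the count was also 0, beside 4.6%. Within replicate numbers 0 of 31 passed after adjustment, beside 2.96%, and 4 of 31, 12.9%, at the unadjusted threshold, beside 17%. Log2 differences, miR-9/9* minus empty vector on the log2(signal + 16) scale, ran from -0.22 for Cdc37 to 0.22 for Dnajb4 with a median of 0.00, and 16 members were higher and 15 lower. The median size of the difference was 0.05 for members and 0.10 for all genes tested. It was 0.04 for members and 0.06 for all genes with a signal over 1000, and 0.11 for members and 0.09 for all genes with a signal of 300 to 1000.

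Most members had intervals that bound the difference closely. Within replicate numbers the 95% confidence interval of the difference lay inside a 1.5-fold change either way for all 31 tested members, and without the block for 29. The exceptions were Hsph1, with an interval from -0.80 to 0.99, and Dnajb1, with one from -0.77 to 0.50, both of which varied widely between replicate numbers. These intervals cover each gene on its own and are not adjusted for the number of genes. In 0 members did all 3 samples of one arm lie outside the range of the other, beside 5.07% of genes with miR-9/9* wholly higher and 4.74% wholly lower.

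**Figure D2:**
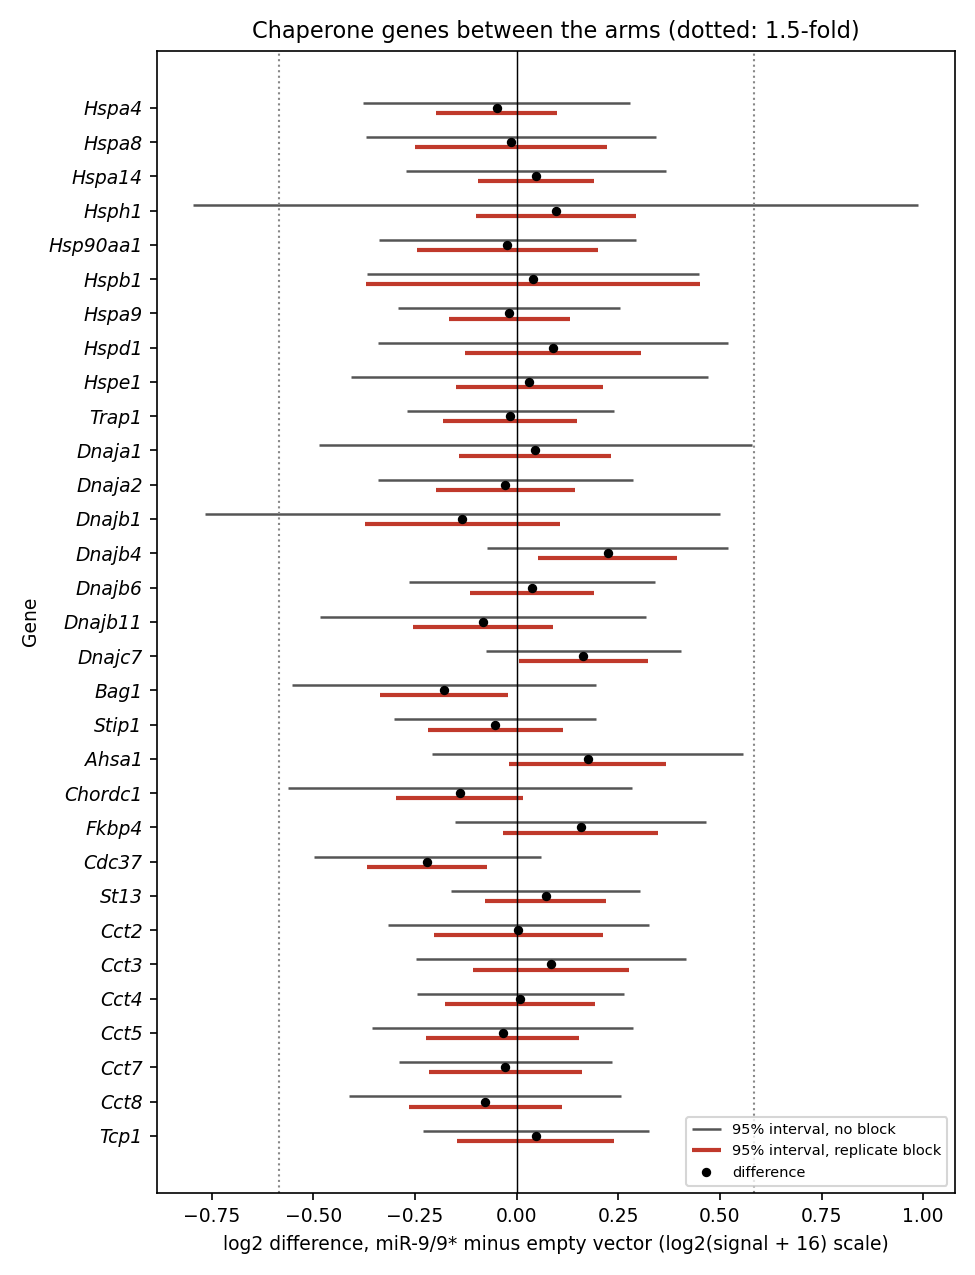
Log2 difference, miR-9/9* minus empty vector (points), with its 95% confidence interval without a block (grey) and with the replicate number as a block (red), for the 31 tested members. The red intervals all lie between the dotted lines at 1.5-fold, and the grey ones of Hsph1 and Dnajb1 cross them.

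Among the Hsp70 proteins, Hspa8, the constitutive Hsp70 of the cytosol, averaged 6538 ± 1140.5 (SD, n = 3) with the empty vector and 6442 ± 742 (SD, n = 3) with miR-9/9*. Its log2 difference was -0.01, with an interval from -0.25 to 0.22 within replicate numbers. Hsp90aa1, the inducible Hsp90, averaged 5284 ± 865 (SD, n = 3) and 5160.3 ± 287 (SD, n = 3), a log2 difference of -0.02 with an interval from -0.25 to 0.20. In both genes the samples of an arm were spread more widely than the arms were apart.

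Cdc37, which delivers protein kinases to Hsp90, came nearest to a call. Its signals were 942, 965 and 1153 with the empty vector and 844, 807 and 966 with miR-9/9*, lower with miR-9/9* in 3 of 3 pairs, and the arms overlapped through the highest miR-9/9* sample. The log2 difference was -0.22 ± 0.0654 (SE within replicate numbers; limma adjusted p = 0.124). Over the alternative settings of the blocked comparison its adjusted p ran from 0.0918 to 0.308.

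Bag1, a nucleotide exchange factor for Hsp70 that binds the proteasome, also had lower values with miR-9/9* in each pair. The empty vector samples gave 941, 815 and 1216 and the miR-9/9* samples 863, 752 and 983. The arms overlapped widely, and the difference of -0.18 ± 0.0696 (SE within replicate numbers) had a limma adjusted p of 0.230. Dnajb4, a J protein related to Dnajb1, gave 249, 233 and 275 with the empty vector and 266, 287 and 342 with miR-9/9*. Its values were higher with miR-9/9* in each pair and overlapped only through the lowest miR-9/9* sample, with a difference of 0.22 ± 0.0757 (limma adjusted p = 0.173). Dnajc7, a J protein with TPR repeats that binds both Hsp70 and Hsp90, gave 549, 526 and 521 against 612, 548 and 639, overlapping only through the lowest miR-9/9* sample, with a difference of 0.16 ± 0.0703 (limma adjusted p = 0.276). These were the 4 members past the unadjusted threshold.

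Of the 31 members, 5 were higher with miR-9/9* in 3 of 3 pairs, beside 21% of all genes, and 4 were lower in 3 of 3 pairs, beside 18%. The former were Ahsa1, Dnajb4, Dnajc7, Hspa14 and St13, and the latter Bag1, Cdc37, Chordc1 and Hspa4. Both shares, 16.1% and 12.9%, lie below those of all genes. In 30 of 31 members, 96.8%, the largest difference between replicate numbers exceeded the difference between the arms, beside 84.1% of all tested genes, and Dnajc7 was the exception.

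Between the replicate numbers, part of the set did pass. With the arm in the model, 12 of 31 members, 38.7%, differed between replicate numbers by limma's moderated F-test at an adjusted p of 0.05, beside 24.3% of all tested genes. All 12 were highest in number 3; called and highest there were 9.2% of all tested genes, and 37.9% of the called genes were highest there. Bright genes had larger shares. Whichever number was highest, 28.8% of all genes with a mean signal over 1000 were called and 36.3% of those with 300 to 1000. With a mean signal over 1000, 7 of 19 members (36.8%) and 23.3% of all genes were called and highest in number 3, where 80.9% of all called genes were highest, and with a signal of 300 to 1000 it was 5 of 10 members beside 18.5%. Irrespective of calls, the mean was highest in number 3 for 29 members (31.7% of all genes) and lowest in number 2 for 24 (32.6%). For 23 members both held (19.9%). Both number 3 arrays lay above the other 4 for 24 members, beside 16.4%, and both number 2 arrays below the other 4 for 12, beside 13.5%. The shares of all genes in these counts irrespective of calls were not split by brightness. What a number stands for beyond the label is not given, and the brightness of the number 3 arrays, described above, moves with it.

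**Figure D3:**
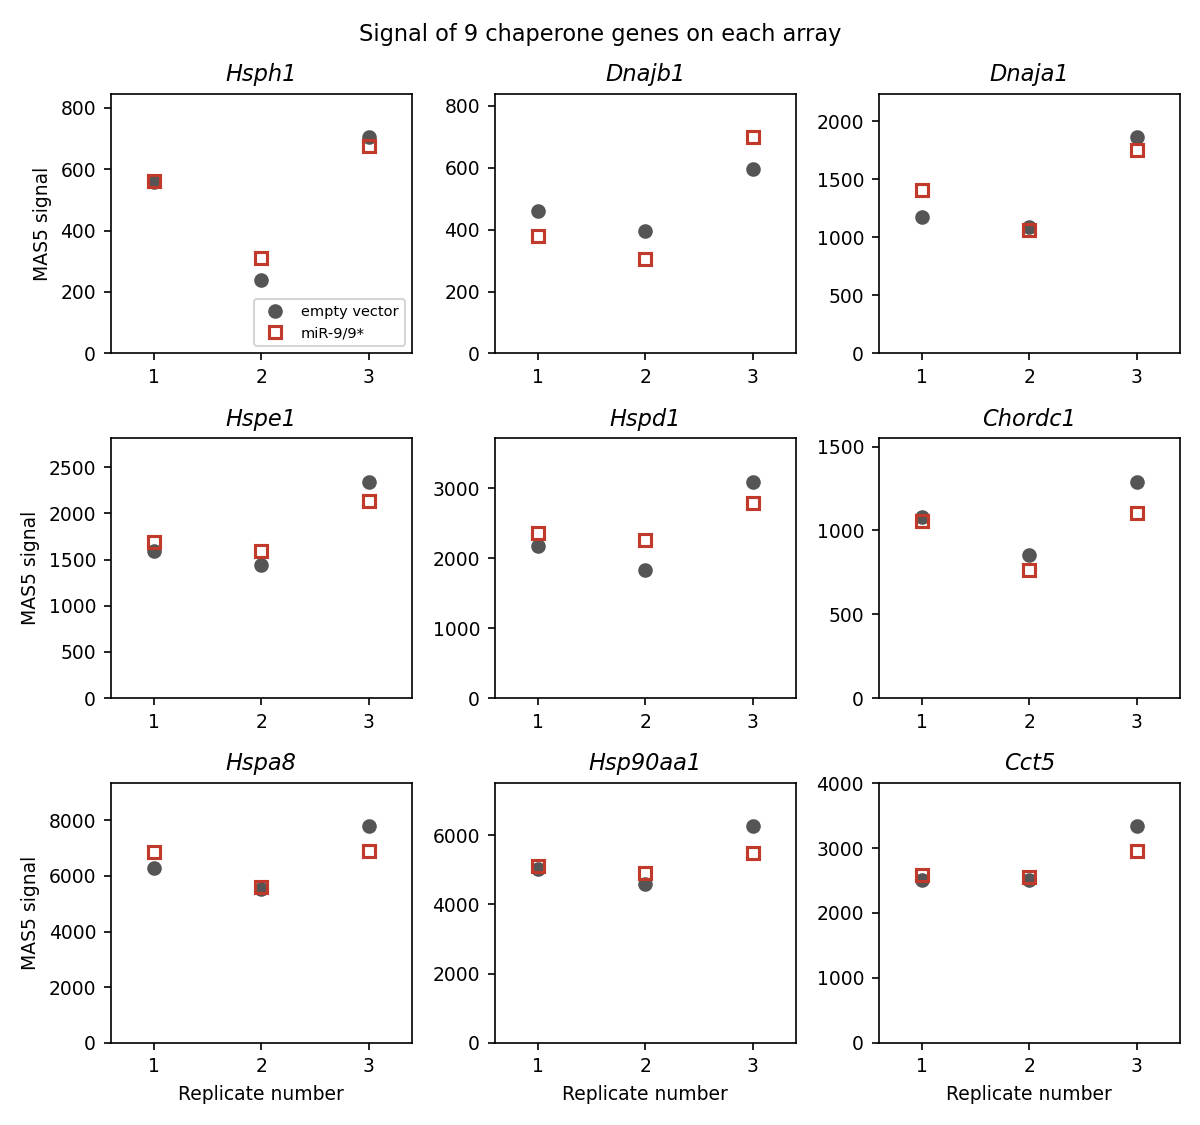
MAS5 signal (vertical axis from 0) of 9 members on each array against replicate number, with filled circles for empty vector and open squares for miR-9/9*. In Hsph1 both number 2 arrays lie far below the other 4, and in each of the 9 genes both number 3 arrays are the highest.

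Hsph1, the Hsp110 protein that acts as a nucleotide exchange factor and disaggregase partner of Hsp70, differed most. Its signals were 558, 241 and 705 with the empty vector and 560.2, 310 and 675 with miR-9/9*. Number 2 was low and number 3 high in both arms, with a log2 difference of 1.29 between numbers 3 and 2 and of -0.99 between numbers 2 and 1 (limma F-test, adjusted p = 0.000374). A second probe set for Hsph1 gave 329, 194 and 429 against 328, 189 and 410, and so held the same order in each arm.

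The other Hsp70 relatives moved less. Hspa4, a cytosolic Hsp110 protein, gave 1021, 1121 and 1311 with the empty vector and 969, 1068 and 1306 with miR-9/9* (limma F-test, adjusted p = 0.0201). Hspa14, the ribosome-bound Hsp70, gave 555, 592 and 718 and then 588, 596 and 745 (limma F-test, adjusted p = 0.0221). In both genes number 1 was lowest and number 3 highest in each arm, with a difference between those numbers of 0.39 and 0.35 on the log2 scale. Hspa8 gave 6284, 5546 and 7784 with the empty vector and 6856, 5584 and 6884 with miR-9/9*, lowest in number 2 and highest in number 3 in each arm, but did not pass the test (limma F-test, adjusted p = 0.101). Its dimmest probe set gave 97.3, 98.2 and 249 against 105, 112 and 263, with number 3 standing further apart than on the brightest set, and with the probe sets of a gene averaged Hspa8 passed (limma F-test, adjusted p = 0.00850). The same averaging ended the calls of Hspa4 and Hspa14, with adjusted p of 0.838 and 0.123 by that test, and lowered the largest difference between numbers for Hspa4 from 0.39 to 0.08 on the log2 scale. Over 17 alternatives the call was lost in 8 for Hspa4 and in 9 for Hspa14.

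Among the J proteins, which stimulate the ATPase of Hsp70, 4 of 7 differed between numbers. Dnaja1 gave 1178, 1089 and 1867 with the empty vector and 1408, 1068 and 1753 with miR-9/9*, a log2 difference of 0.74 between numbers 3 and 2 (limma F-test, adjusted p = 0.00417). Dnajb1, the main J partner of the inducible Hsp70 and a feedback repressor of HSF1, gave 459, 397 and 597 and then 380.1, 306 and 700.1, a difference of 0.86 (limma F-test, adjusted p = 0.00575). In both genes number 3 was the highest and number 2 the lowest of each arm. On a second Dnajb1 probe set number 3 was further apart, at 615 and 893 against 239 to 284 on the other 4 arrays. Dnajb11, an endoplasmic reticulum partner of BiP, gave 350.0, 428 and 543 against 375, 372 and 488 (limma F-test, adjusted p = 0.0141), and Dnajb6, a suppressor of aggregation, gave 944, 910.0 and 1135 against 1036, 892 and 1143 (limma F-test, adjusted p = 0.0427). Both were highest in number 3 in each arm. Dnaja2, Dnajb4 and Dnajc7 did not pass, with adjusted p of 0.0584, 0.119 and 0.529 by the same test. With the probe sets of a gene averaged Dnajb4 did pass (limma F-test, adjusted p = 0.00601).

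The mitochondrial chaperonin showed the same order. Hspe1, the lid of the Hsp60 barrel, gave 1597, 1439 and 2346 with the empty vector and 1689.9, 1596 and 2136 with miR-9/9* (limma F-test, adjusted p = 0.00897). Hspd1, the barrel itself, gave 2172, 1828 and 3095 against 2361, 2253 and 2788 (limma F-test, adjusted p = 0.0250). Numbers 3 and 2 were 0.56 and 0.53 apart on the log2 scale in these genes, which share the promoter printed above. The mitochondrial Hsp70 Hspa9 did not follow it, as its values of 1066, 1271 and 1221 against 1055, 1288 and 1172 were highest in number 2 in each arm (limma F-test, adjusted p = 0.0795), and the mitochondrial Hsp90 Trap1 did not pass either (limma F-test, adjusted p = 0.376).

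Of the cochaperones of Hsp70 and Hsp90, 3 of 7 differed between numbers. Chordc1, a zinc-binding Hsp90 partner, gave 1082, 853 and 1292 with the empty vector and 1056, 763 and 1102 with miR-9/9*, 0.55 apart between numbers 3 and 2 on the log2 scale (limma F-test, adjusted p = 0.00600). Bag1, whose signals are given above, had a log2 difference of 0.47 between numbers 3 and 2 (limma F-test, adjusted p = 0.0122). Ahsa1, which activates the ATPase of Hsp90, gave 1431, 1209 and 1871 against 1537, 1593 and 1911 (limma F-test, adjusted p = 0.0295). In Chordc1 and Bag1 number 2 was the lowest of each arm, and in Ahsa1 the miR-9/9* arm was lowest in number 1. Stip1 and St13, which bridge or regulate Hsp70 and Hsp90, Fkbp4, an immunophilin, and Cdc37 did not pass, with adjusted p from 0.0667 for Cdc37 to 0.447 for Stip1. Hsp90aa1 itself gave 5007, 4591 and 6254 against 5102, 4907 and 5472, again highest in number 3 in each arm without passing (limma F-test, adjusted p = 0.175).

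None of the 7 tested CCT subunits passed, with adjusted p from 0.0631 for Cct8 to 0.421 for Cct7, although number 3 had the highest mean in 7 of 7. With the probe sets of a gene averaged Cct7 did pass (limma F-test, adjusted p = 0.0381). Cct2 gave 2935, 2711 and 3767 with the empty vector and 3175, 2913 and 3271 with miR-9/9*, and Cct4 gave 3080.3, 2777 and 3342 against 3030.1, 2998 and 3207. Tcp1, the first subunit named, gave 2723, 2384 and 3087 against 2866, 2697 and 2860.0, and Cct5 gave 2506, 2509 and 3336 against 2586, 2560.1 and 2947. In Cct2, Cct4 and Cct5 both number 3 arrays were the highest, and in Tcp1 the highest miR-9/9* sample was number 1. Hspb1, described above, had a limma F-test adjusted p of 0.805.

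The height of number 3 depended partly on brightness and scaling. For the 891 tested genes with a mean signal over 1000, number 3 exceeded the mean of numbers 1 and 2 by a median of 0.18 on the log2 scale as deposited and by 0.00 after quantile normalization, which gives all arrays one distribution. For the 19 members in that range it was 0.29 as deposited and 0.11 after quantile normalization. For the 10 members with signals of 300 to 1000 it was 0.28 and 0.22, beside 0.02 and -0.01 for all 2292 genes of that range. Centring the arrays on their medians raised the excess instead. It was then 0.39 for members over 1000 and 0.38 for members of 300 to 1000, beside 0.28 and 0.13 for all genes of those ranges. Number 3 lay above the others for 31 of 31 members as deposited and 25 of 31 after quantile normalization, beside 42.5% and 52.3% of all genes tested. With a signal over 1000 the shares were 100% and 68.4% of members, beside 76.3% and 51.4% of all genes. With a signal of 300 to 1000 they were 100% and 100% of members, beside 54.3% and 49.3%.

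Quantile normalization left 9 of 31 members called, beside 21% of all genes. Of the 9, 8 were shared with the deposited scale and 8 were highest in number 3, beside 8.8% of all genes called and highest there. Hsph1, Dnaja1, Chordc1, Hspe1, Dnajb1, Bag1, Dnajb11 and Hspd1 remained called (limma F-test, adjusted p from 0.00118 to 0.0358). Hspa14, Hspa4, Ahsa1 and Dnajb6 were not called, with adjusted p of 0.0514, 0.0590, 0.0803 and 0.139, and Hspa9 was newly called at 0.0269. On this scale the CCT subunits lost most of the pattern, with a median excess of number 3 of 0.05 against 0.26 as deposited, and Hsp90aa1 went from 0.26 to 0.00. Of the J proteins, Dnaja1, Dnajb1, Dnajb4 and Dnajb11 stood 0.26 to 0.70 higher in number 3 after quantile normalization, and Dnaja2, Dnajb6 and Dnajc7 by 0.13, 0.15 and 0.00.

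**Figure D4:**
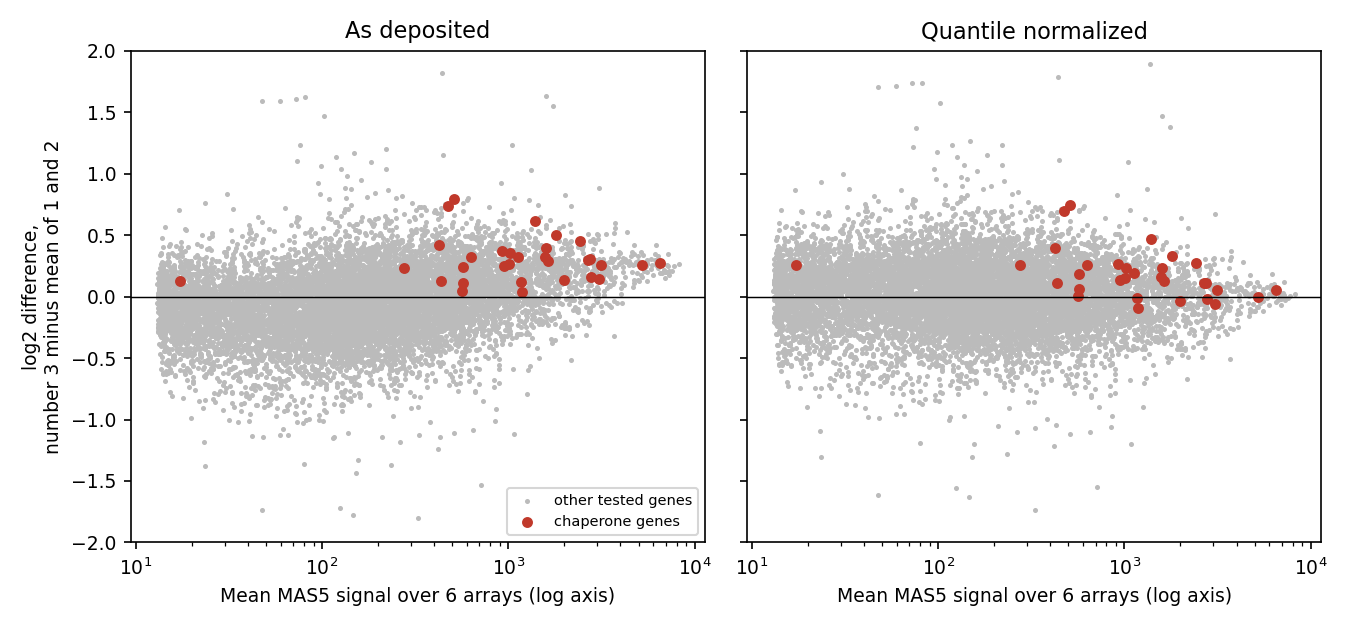
Log2 difference of number 3 from the mean of numbers 1 and 2 against mean signal (log axis) for members (red) and the other tested genes (grey), as deposited (left) and after quantile normalization (right). The grey cloud turns upward at high signals on the left only, while the members between 300 and 1000 lie above 0 in both panels; 16 genes on the left and 15 on the right, with 0 members among them, lie beyond the axis limit of 2.

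Each arm by itself showed the order of numbers 2 and 3. Number 3 exceeded number 2 in both arms for 28 of 31 members, 90.3%, beside 32.6% of all genes, a share not split by brightness. Across members the differences between numbers 3 and 2 in the arms had a Pearson r of 0.62 and a Spearman rho of 0.47, and across all genes 0.68 and 0.63, where genes are not independent replicates and share each array's scaling. The range of this difference over members was -0.10 to 1.49 with the empty vector and -0.13 to 1.15 with miR-9/9*.

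Other genes of the chaperone network, in lists drawn up by name, gave 93 genes of which 82 were tested. Between numbers, 3 of 9 tested genes passed among further CCT subunits and the prefoldin genes, which hand nascent actin and tubulin to CCT, 3 of 8 among further HSF factors and heat-responsive genes, 4 of 24 among other J proteins, 6 of 18 among other cochaperones, 2 of 8 among other mitochondrial chaperones and 2 of 15 among endoplasmic reticulum chaperones, beside the 24.3% of all genes. Highest in number 3 were 3, 3, 2, 3, 2 and 2 of these in the order of the lists. That was every called gene except in the J protein and cochaperone lists. Among all tested genes 37.9% of the called ones were highest there. The median excess of number 3 over the other numbers was 0.20 for the prefoldin and CCT list, -0.07, -0.04 and -0.05 for the heat-responsive, J protein and endoplasmic reticulum lists, and 0.13 and 0.15 for cochaperones and mitochondrial chaperones, beside -0.05 for all genes. After quantile normalization the heat-responsive and J protein lists turned to 0.08 and 0.02, the endoplasmic reticulum list stayed at -0.05, and all genes were at 0.01.

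Hikeshi, which carries Hsp70 into the nucleus in heat, gave 375, 366 and 525 with the empty vector and 391, 332 and 520.5 with miR-9/9* (limma F-test, adjusted p = 0.00551). Its number 3 stood highest in each arm. Of the same list, Hsbp1, which binds HSF1, had 1012, 1197 and 1279 against 1026, 1214 and 1331, and Hmox1, a heat- and haem-responsive enzyme, had 103, 70.1 and 118 against 74.2, 57.3 and 92.4. Both passed (limma F-test, adjusted p = 0.0281 and 0.0204). Among prefoldin subunits Pfdn4, Pfdn2 and Vbp1 passed with adjusted p of 0.0145, 0.0172 and 0.0357 by the same test, and all were highest in number 3.

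Of the remaining lists, Dnajc9, a histone-binding J protein, gave 875, 720 and 1237 against 896, 858 and 1192 (limma F-test, adjusted p = 0.00576), and Nasp, a histone chaperone, gave 657, 507 and 911 against 626, 557 and 813 (limma F-test, adjusted p = 0.00409). Cdc37l1, a relative of Cdc37, went the other way, at 151, 152 and 69.0 against 165, 152 and 85.1 (limma F-test, adjusted p = 0.00196), as did Bag6, which guards tail-anchored proteins, at 191, 207 and 135 against 193, 191 and 126 (limma F-test, adjusted p = 0.00797). Number 3 was thus the highest for the first pair and the lowest for the second. Sugt1 passed with number 3 highest in the mean of the arms, as did Dnajc21, Grpel1, Clpp, Pdia3 and Sdf2l1, while Dnajc10 and Dnajc27 passed with number 3 lowest (adjusted p from 0.00839 to 0.0347 by the same test). In the empty vector arm Dnajc21 was highest in number 2. Some calls in these lists depended on processing. With probe sets averaged Cdc37l1, Sugt1, Hsbp1, Dnajc21 and Dnajc10 did not pass (limma F-test, adjusted p from 0.0752 to 0.422). Vbp1 lost its call in 9 of 17 alternatives, while Nasp, Bag6, Hikeshi and Dnajc9 lost theirs in 1.

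Between the arms, 0 of these 82 genes passed without a block (0.0588% of all genes), and within replicate numbers 2 did (2.96% of all genes), both lower with miR-9/9*. Hspa13, a microsomal member of the Hsp70 family, gave 459.9, 566 and 448 with the empty vector and 319, 372 and 331 with miR-9/9*, so the arms did not overlap. Its log2 difference was -0.50 (limma within replicate numbers, adjusted p = 0.00667). Dnajc21, a J protein of ribosome biogenesis, gave 258, 379 and 365 against 178, 199 and 253, arms that again did not overlap, with a difference of -0.63 (limma within replicate numbers, adjusted p = 0.00857). Without the block their adjusted p was 0.492 and 0.653, and with no variance trend in the blocked comparison 0.0764 and 0.0836. Hspa13 also missed the threshold with probe sets averaged, at 0.0652, and Dnajc21 with no filter, at 0.0562. The endoplasmic reticulum chaperones Hspa5 and Hsp90b1 did not pass, the latter with 2868, 3202 and 2924 against 2507, 2602 and 2217 (limma within replicate numbers, adjusted p = 0.0941).

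Markers of other cell types also moved with the numbers. The summed signal of 8 late neutrophil markers was 2650.1 to 3908 on the number 1 arrays, 248 to 1007 on number 2 and 998 to 1221 on number 3, and that of 5 eosinophil markers was 1376 to 3617, 255 to 277 and 386 to 1051. Both sums were highest in number 1, but not every marker was. Of those above the filter, S100a8, S100a9, Ltf, Ngp, Prg2, Epx and Siglecf were highest in number 1 in each arm. The neutrophil markers Lcn2 and Mmp9 were instead highest in number 2 in the mean of the arms. The sum of 7 megakaryocyte markers was lowest in number 3, at 1222 to 1509, against 1602 to 1968 in number 1 and 2263 to 2866 in number 2. Of 7 stromal markers 2 passed the filter, Pecam1 and Epcam. The sum of the list was also lowest in number 3, at 169 to 170.3 against 297 to 358 on the other 4 arrays. Most of that sum was Pecam1, at 259, 295 and 111 with the empty vector and 256, 229 and 106 with miR-9/9*. Epcam was instead lowest in number 1 in each arm, at 29.6 and 16.6. Between the arms, summed erythroid markers were 1569 to 1640.4 with the empty vector and 2469 to 2765 with miR-9/9*. Within each number the eosinophil and megakaryocyte sums were also higher with miR-9/9* and the neutrophil sum lower, with overlapping arms. Of the erythroid markers, Gata1, Klf1, Rhag and Gypc passed, but Hemgn and Epor did not (limma within replicate numbers, adjusted p = 0.222 and 0.784). Slc4a1 and Alas2 lay below the filter. The part of these cell type markers in the differences between numbers or arms was not tested.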

How the data were processed

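The deposited values are MAS5 signal intensities on a linear scale, made by the authors per the submitters' processing notes, which name no version, from biotinylated cRNA on 1-colour arrays. Genes were named from a 2016 platform annotation: of 45101 probe sets, 64 are controls, 34945 carry 1 symbol, 932 several and 9224 none. A gene was represented by its probe set of highest mean, only where that set named it alone. Signals were taken as log2(signal + 16) without further normalization, and probe sets with a mean below the median of all probe sets (4.86) were left out, leaving 10208 genes. A fold change on this scale understates that of dim genes.

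Two-sided linear models with a variance trend (limma 3.58.1, R 4.3.3; Benjamini-Hochberg adjustment over all tested genes, threshold 0.05) gave the arm difference without a block (4 residual degrees of freedom), the arm difference with the replicate number as a block (2), and a moderated F-test over the replicate numbers with the arm in the model. The labels give the numbers, and the pairing was read from same-numbered correlations above a limit of 0.1; the largest correlation between different numbers was -0.04. Scripts were tested on simulated data. Quantile normalization, centring, other pseudocounts and filters, averaged probe sets, no variance trend, array weights and left-out samples were the alternatives.

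The members and gene lists were chosen with earlier results of these data known. All members are accounted for; those named in full are every member called, the 6 brightest and Hsf1, Hspa1a, Hspa1b, Hspa8, Hsph1, Hsp90aa1, Hsp90ab1, Hspb1 and Dnajb1, and from each other list up to 4 called genes, by smallest p, or the 2 brightest. Members past an unadjusted p were added after their values were seen, as were the further sequences and probe sets shown. Detection calls were not used here.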

Additional observations from a re-analysis of the deposited data

How the results depend on the processing

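No member was called between the arms under any alternative tried, 0 of 31 in the main comparison, 0 with the replicate block and 0 under each setting combined with the block. The number of members that differed between replicate numbers was 12 as reported (24.3% of all genes), 7 with no filter on dim probe sets (5.81%) and 4 with no variance trend (8.52%). It ranged from 4 to 20 when samples were left out: 4 without replicate 3 of both arms (7.74% of all genes), of which 2 were among the original 12, and 20 without miR-9/9* replicate 3 (25.9% of all genes), 19 of them highest in number 3. It was 12 with pseudocounts of 1 and 64 (23.3% and 24% of all genes), 14 of 30 tested with the filter at the 75th percentile (34.5%), 9 with quantile normalization (21%), 17 with arrays centred on their medians (24.2%) and 11 with probe sets averaged (23.4%). Of the 17 alternatives, Hsph1 was called in all, Dnaja1, Dnajb1 and Chordc1 in all but 1, Hspe1 in all but 2, while calls were lost in 3 for Dnajb11 and Bag1, 6 for Hspd1, 7 for Ahsa1, 8 for Hspa4, 9 for Hspa14 and 12 for Dnajb6. Averaging probe sets ended the calls of Hspa4, Hspa14, Ahsa1 and Dnajb6 and newly called Hspa8, Dnajb4 and Cct7. For all genes, calls between the arms numbered 6 without the block and 302 with it, and calls between numbers fell from 2479 to 1057 with no filter, over 18193 genes, and 870 with no variance trend. Apart from the lost filter, which tests more genes, the cause was not tested. The dim members Hspa1a, Hspa1b and Bag3 were tested only with no filter. There 0 of 34 members were called between the arms, beside 0% of 18193 genes without the block and 0.407% with it. With so few calls among all genes, this count says little about the dim members.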

Other observations

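Other probe sets of the same genes gave a mixed picture. Members had 76 probe sets with 1 symbol above the filter, of which 59 were higher in number 3 than in number 2. Of 51 with a mean signal over 300, 47 were higher, and of 25 with a mean signal up to 300, 12 were. Of 21 members with several probe sets above the filter, 10 had the same sign on all of them. Ahsa1 is an example of disagreement: its bright set differed by 0.44 on the log2 scale between numbers 3 and 2, and its dim set, with signals of 42.4, 51.9 and 26.2 in the empty vector samples and 52.8, 58.2 and 31.1 with miR-9/9*, by -0.67.

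The bases before the annotated starts of Hspa1a and Hspa1b are identical at 247 of 250 positions.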
